A study of Mus musculus with 13 samples.

Results

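Anillin (*Anln*) is the scaffold protein that ties actin, myosin and septins together in the contractile ring of a dividing cell, and it was followed here with 7 genes that work beside it in the last steps of mitosis: *Ect2*, *Racgap1*, *Cep55*, *Prc1*, *Cit*, *Pimreg* and *Pbk*. The 8 genes were chosen by name, with earlier results of these data known. All 8 were found among the 35967 gene symbols of the expression table. They were measured by bulk RNA-Seq in glomeruli, the filtering units of the kidney, isolated from wildtype Balb/c mice. Each mouse received 2 mg of rabbit IgG into the peritoneum, either preimmune IgG (control, n = 5) or anti-THSD7A IgG, and the latter mice were studied 1 day (day 1 MN, n = 4) or 5 days later (day 5 MN, n = 4). THSD7A is a podocyte membrane protein and a target antigen of membranous nephropathy (MN), so the antibody transfers the disease passively. Per the study's methods the MN model used male mice only. Control mice of both days form 1 group, and the labels do not say which control belongs to which day, so both MN groups are set against the same control libraries.

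A cell divides its cytoplasm by a fixed chain of events. PRC1 and kinesins bundle microtubules into the spindle midzone, centralspindlin and ECT2 gather there and switch on the GTPase RHOA, RHOA builds the actomyosin ring that anillin organises, and citron kinase and CEP55 then shape the midbody, where the ESCRT machinery cuts the last bridge. Many of these proteins are made only in dividing cells, shortly before mitosis. Podocytes of the adult glomerulus are terminally differentiated and rarely divide, and anillin is also known there from inherited focal segmental glomerulosclerosis, in which its gene is mutated.

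Levels are given as TPM, a unit of relative transcript abundance that is scaled for transcript length and for the total of each library. Differences between groups are log2 fold changes, the difference of mean log2(scaled TPM + 0.5), tested with limma over the 14322 genes that reached a TPM of 1 in 4 or more libraries. A gene was called when its Benjamini-Hochberg adjusted p was under 0.05 and its log2 fold change was beyond 0.5 in either direction. The added 0.5 understates the change of low genes. All 8 genes passed the filter, 6 of them without the day 5 libraries. *Cep55* and *Pbk* reached a TPM of 1 in only 2 of the 9 control and day 1 libraries and passed only through day 5, so they add nothing to a count of genes that differ. Podocyte transcripts were abundant in all 3 groups. The podocyte gene *Nphs1* (nephrin) had a mean TPM of 765 ± 129 in control (SD, n = 5), 669 ± 66.7 in day 1 and 654 ± 67.6 in day 5 libraries (SD, n = 4 each). Transcripts of the tubule were present too, and their markers are described further on. The tubule gene *Umod* had a mean TPM of 298 ± 73.2 in control, 438 ± 113 in day 1 and 291 ± 30.7 in day 5 libraries (SD). Libraries correlated with each other at a Spearman rho of 0.971 to 0.988.

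The promoters of the 8 genes were read first, since many genes of late mitosis carry a cell cycle homology region (CHR), a short element bound by MuvB complexes, often next to CCAAT boxes. The window ran from 250 bases before to 50 bases after the start of the Ensembl canonical transcript, with the first transcribed base counted as 1 and no position 0. A CHR was any TTTGAA or TTCGAA on either strand, and a CCAAT box was CCAAT on either strand. TTCAAA is TTTGAA read from the opposite strand. No CHR match overlapped a CCAAT match in the 8 promoters. A CHR was found in 7 of the 8 promoters (87.5%), against 15.6% of 13180 promoters of tested genes and 18.7% of 21757 protein-coding promoters. *Cit*, which has 21 annotated transcripts, was the gene without one in this window. Only the canonical start of each gene was searched. A CCAAT box was found in 4 of 8 (50%), against 39.1% and 39.9%. The sites nearest each start are shown as 30 bases of GRCm39, 5′ to 3′ on the gene's strand, because they are what 7 of the 8 promoters have in common. Capitals mark CHR letters.
Anln (chr9:22300464-22300493, minus strand): ggggcgctgaaaTTCAAAtTTTGAAcggcc
Ect2 (chr3:27207980-27208009, minus strand): tagagagagcgactggattttTTTGAAtcg
Racgap1 (chr15:99549515-99549544, minus strand): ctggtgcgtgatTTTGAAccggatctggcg
Cep55 (chr19:38043444-38043473, plus strand): acagccgcgggaTTCAAActcccggaagcg
Prc1 (chr7:79944182-79944211, plus strand): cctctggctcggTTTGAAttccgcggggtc
Pimreg (chr11:71933284-71933313, plus strand): gccgcgcggagtTTCAAAtcggctgcggtg
Pbk (chr14:66043293-66043322, plus strand): tctggcgggaccTTTGAAaaagcgtgcttc

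The *Anln* site held a pair of CHR matches on opposite strands, at positions 21 and 28. In *Racgap1*, *Prc1*, *Pimreg* and *Pbk* the match nearest the start began at positions 6, 8, 20 and 20, and *Pbk* had another at -172. *Cep55* had its only match before the start, at position -29. *Ect2* had matches at -112 and 42 and CCAAT boxes at -94, -53 and 4, and its 150 bases before the start show the arrangement, with CHR and CCAAT letters in capitals.
Ect2 (chr3:27208030-27208179, minus strand): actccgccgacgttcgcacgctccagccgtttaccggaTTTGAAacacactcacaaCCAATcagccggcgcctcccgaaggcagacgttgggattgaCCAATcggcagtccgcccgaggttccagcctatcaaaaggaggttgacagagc
*Pimreg* also had 3 CCAAT boxes, at -107, -67 and -25, and *Prc1* and *Racgap1* had 1 each, at -25 and -12. These are matches of letters in the GRCm39 genome sequence and no binding was measured. The genes and motifs were chosen with earlier results of these data known, so the shares are descriptions.

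**Figure D1:**
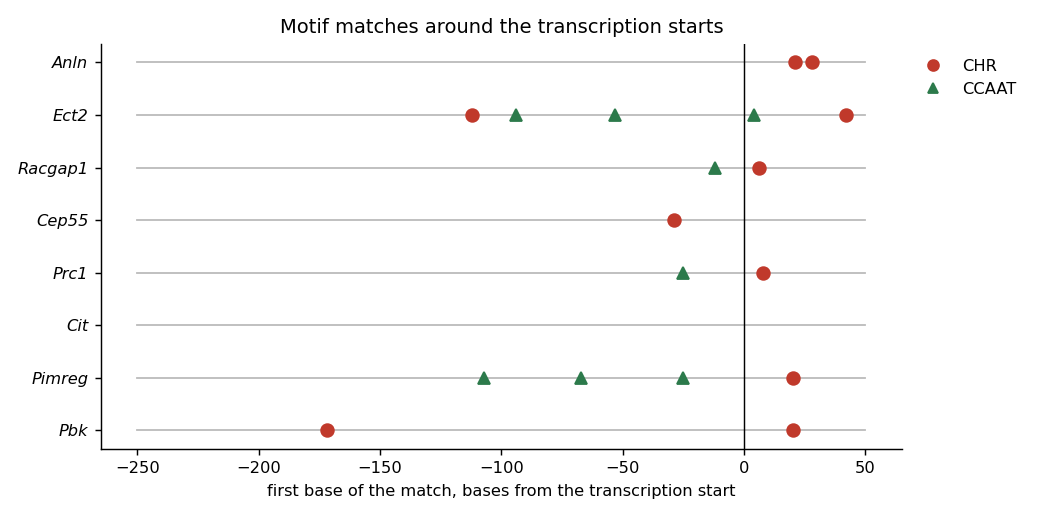
Positions of CHR (circles) and CCAAT (triangles) matches on either strand from 250 bases before to 50 after the transcription start (0 on the axis) of each of the 8 genes. *Cit* has no match of either kind, and in the other 7 genes the CHR nearest the start lies between -29 and 42.

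*Anln* lies on the minus strand at chr9:22242402-22300501 in GRCm39 and its canonical transcript has 24 exons. It shares 216 and 186 exonic bases with the long noncoding RNA genes *Gm68477* and *Gm68483* on the opposite strand. Neither is in the expression table, so reads shared with them were not examined. The TPM of *Anln* in the 5 control libraries was 1.78, 1.92, 1.66, 1.98 and 0.911, with a mean of 1.65 ± 0.431 (SD). At day 1 the 4 libraries read 1.30, 1.00, 1.08 and 0.794, and at day 5 they read 11.1, 11.5, 20.6 and 6.64. Every day 5 library lay above every control and day 1 library, whereas 3 of the 4 day 1 libraries lay inside the control range and the other was just under it. *Anln* rose at day 5 by a log2 fold change of 2.54 (95% confidence interval 1.98 to 3.10, limma adjusted p = 7.84e-05), and its mean TPM was 7.55 times that of control. The day 1 difference was -0.42 (-0.98 to 0.14, limma adjusted p = 0.529), which did not pass. Day 5 against day 1, the test of the change between the days, gave 2.97 (2.37 to 3.56, limma adjusted p = 6.38e-05). Among the 14322 tested genes ordered from the largest rise at day 5 down, the rank of *Anln* was 19.

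The group as a whole moved the same way at day 5. As the genes were chosen with earlier results of these data known, the counts beside the backgrounds are descriptions. All 8 genes were called as higher against control, where the background was 2.42% of tested genes, and in all 8 the day 5 libraries lay above every control library, where the background was 5.07%. Leaving aside *Cep55* and *Pbk*, 6 of 6 were called, and in all 6 the day 5 libraries lay above every control library. The median log2 fold change was 2.48 over the 8 and 2.28 over these 6, beside a median of -0.00322 over all tested genes. At day 1 none of the 8 was called by limma, where the background was 0.0908% of tested genes called in either direction. None had an unadjusted p under 0.05, a level that 12.6% of all tested genes reached. The 8 log2 fold changes ran from -0.42 to 0.29. From day 1 to day 5, 7 of the 8 were called as higher, where the background was 1.41%. In all 8 every day 5 library lay above every day 1 library, where the background was 6.12%. Without *Cep55* and *Pbk*, 5 of 6 were called between the days, and in all 6 the day 5 libraries lay above every day 1 library. In bulk glomeruli, more cells that express these genes and more RNA in each such cell cannot be told apart.

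**Figure D2:**
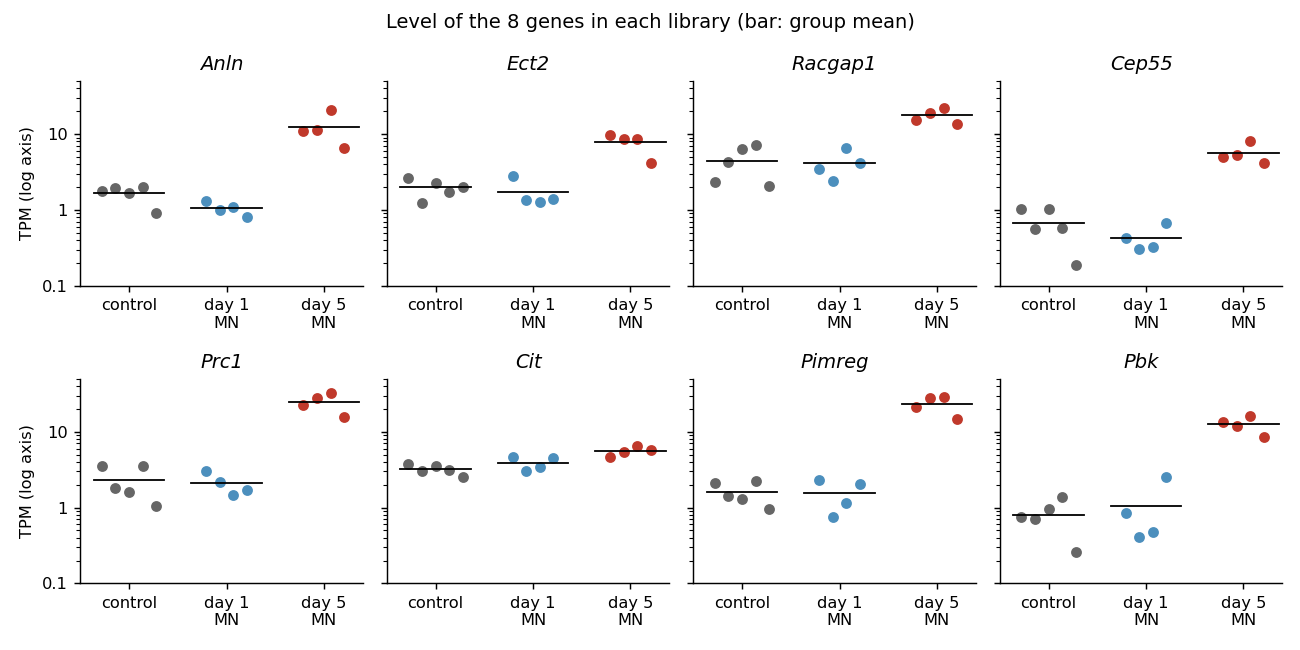
TPM of each of the 8 genes in every library on a log axis, by group, with a bar at the group mean (control n = 5, day 1 MN n = 4, day 5 MN n = 4). In each panel all 4 day 5 points sit above the other 9, and the control and day 1 points overlap.

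Centralspindlin and its partner carry the signal from the midzone to the membrane. *Ect2* (chr3:27151371-27208029) encodes the exchange factor that activates RHOA at the cell equator. Its TPM in the control libraries was 2.65, 1.23, 2.28, 1.70 and 2.01. In the MN libraries it was 2.82, 1.37, 1.27 and 1.37 at day 1 and 9.85, 8.58, 8.57 and 4.11 at day 5. Day 1 replicate 1 was the highest of the 9 libraries outside day 5 and stood apart from the 3 others of its group. *Ect2* rose at day 5 by 1.74 on the log2 scale (1.14 to 2.33, limma adjusted p = 0.00189). The day 1 difference was -0.15 (-0.75 to 0.45, limma adjusted p = 0.868). Between day 1 and day 5 it rose by 1.89 (limma adjusted p = 0.00258).

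*Racgap1* (chr15:99518377-99551998) encodes the GTPase-activating subunit of centralspindlin, which binds ECT2. Control libraries held 2.34, 4.30, 6.30, 7.20 and 2.08 TPM, a more than 3-fold span in which replicates 1 and 5 were low. The day 1 values of 3.48, 2.39, 6.49 and 4.15 all fell inside that span. Day 5 libraries held 15.4, 19.0, 22.4 and 13.6 TPM and did not overlap either group. The rise at day 5 was 2.01 (1.31 to 2.72, limma adjusted p = 0.00222), and the day 1 difference was 0.01 (-0.70 to 0.71, limma adjusted p = 0.995). The rise from day 1 to day 5 was also 2.01 (limma adjusted p = 0.00587). With the level of proximal tubule markers as a covariate, this last difference was 1.70 and was no longer called (limma adjusted p = 0.105). That alternative is described with the marker lists.

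*Prc1* (chr7:79944168-79966011) encodes the protein that bundles antiparallel microtubules of the midzone. It stood at 3.54, 1.80, 1.61, 3.56 and 1.04 TPM in the control libraries and at 3.04, 2.16, 1.48 and 1.71 in the day 1 libraries. Day 5 libraries reached 22.9, 28.3, 32.0 and 15.4, the highest mean of the 8 genes at 24.6 ± 7.21 TPM (SD, n = 4). Its rise of 3.25 at day 5 (2.59 to 3.90, limma adjusted p = 4.48e-05) was the fifth largest of all tested genes. The day 1 difference was -0.01 (-0.66 to 0.64, limma adjusted p = 0.995) and the rise from day 1 to day 5 was 3.25 (limma adjusted p = 9e-05). *Prc1* shares 1092 exonic bases with *Rccd1* on the opposite strand, and whether the reads were assigned by strand is not given in the sources used here. *Rccd1* itself had mean TPM of 9.11 ± 3.40, 7.39 ± 1.28 and 8.67 ± 1.91 (SD) in control, day 1 and day 5 libraries, and its log2 fold change at day 5 was 0.00 (-0.45 to 0.45, limma adjusted p = 0.996).

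*Cep55* and *Cit* act last, at the midbody. *Cep55* (chr19:38043395-38063182), whose product recruits the ESCRT machinery to the bridge, was the lowest of the 8 in control glomeruli, with 1.03, 0.553, 1.04, 0.580 and 0.187 TPM. At day 1 it read 0.421, 0.303, 0.325 and 0.672, within the control range, and at day 5 it read 4.93, 5.28, 8.16 and 4.09, all above the other 9 libraries. The log2 fold change was 2.42 at day 5 (1.85 to 2.996, limma adjusted p = 0.000129), -0.27 at day 1 (-0.85 to 0.30, limma adjusted p = 0.711) and 2.69 between the days (limma adjusted p = 0.000125). At levels this low the size depends on the added constant, and with 0.1 in place of 0.5 the day 5 value was 3.02.

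*Cit* (chr5:115983289-116147006) encodes citron kinase, which holds the midbody together and binds RHOA and anillin, and it behaved differently in size. Control libraries held 3.77, 3.05, 3.57, 3.09 and 2.50 TPM. Day 1 libraries held 4.62, 2.997, 3.46 and 4.55, of which replicates 1 and 4 were above every control. Day 5 libraries held 4.66, 5.45, 6.39 and 5.74, and the lowest of them exceeded the highest day 1 library by little. *Cit* rose at day 5 by 0.75 (0.43 to 1.07, limma adjusted p = 0.00814), and the upper bound lay under the lower bounds of the other 7 genes, of which *Ect2* had the lowest, at 1.14. No test between genes was run. Its day 1 difference was 0.29 (-0.03 to 0.61, limma adjusted p = 0.442). Between day 1 and day 5 the difference was 0.46 (0.12 to 0.80, limma adjusted p = 0.162), which did not pass, although the 4 day 5 libraries were above the 4 day 1 libraries.

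*Pimreg* and *Pbk* are mitotic regulators and had the largest rises of the 8. *Pimreg* (chr11:71932858-71938209) encodes a nuclear protein of mitosis that binds the clathrin adaptor PICALM. It read 2.09, 1.41, 1.31, 2.23 and 0.969 TPM in control, 2.33, 0.759, 1.16 and 2.06 at day 1, and 20.9, 27.8, 28.6 and 14.8 at day 5. All day 5 values were above the rest, and the day 1 values straddled the control range. The log2 fold change of 3.51 at day 5 (2.91 to 4.10, limma adjusted p = 1.75e-05) was the second largest of all tested genes. The day 1 difference was -0.02 (-0.61 to 0.58, limma adjusted p = 0.989), and the rise between the days was 3.52 (limma adjusted p = 4.27e-05). *Pimreg* shares 139 exonic bases with *Aipl1* on the opposite strand, a gene with mean TPM of 0.673, 0.310 and 0.288 in the 3 groups.

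*Pbk* (chr14:66041114-66055276) encodes a serine/threonine kinase that is active in mitosis. Its TPM was 0.751, 0.699, 0.950, 1.39 and 0.259 in control libraries, 0.852, 0.407, 0.470 and 2.50 at day 1, and 13.6, 11.9, 16.0 and 8.49 at day 5. Day 1 replicate 4 was the highest of the 9 libraries outside day 5, and the other day 1 libraries were within the control range. *Pbk* rose by 3.37 at day 5 (2.61 to 4.12, limma adjusted p = 7.96e-05), the third largest rise of all tested genes. It rose by 3.20 between day 1 and day 5 (limma adjusted p = 0.000255). This gene passed the filter only through the day 5 libraries, so its rank is a description only. Its day 1 difference was 0.16 (-0.59 to 0.92, limma adjusted p = 0.893). A near-identical copy, *Gm12387*, could take reads from *Pbk*, and it is listed at 0 in all 13 libraries.

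**Figure D3:**
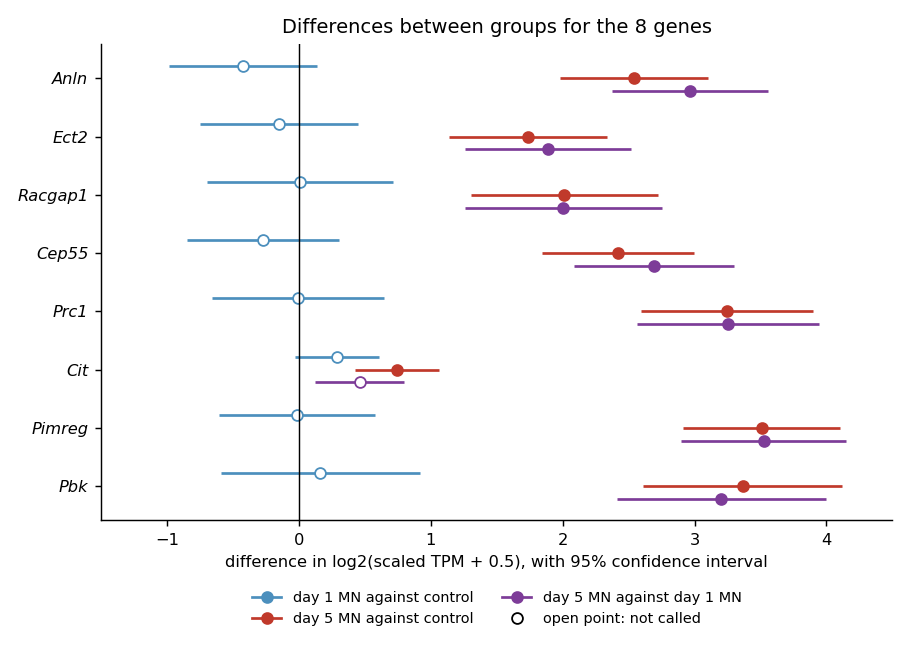
Log2 fold changes with 95% confidence intervals for the 3 comparisons of each gene, with open points where the gene was not called. Day 1 intervals all include 0, day 5 intervals against control all exclude it, and *Cit* has the smallest day 5 difference, 0.75.

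In control glomeruli the order of the mean TPM was *Racgap1* 4.44 ± 2.30, *Cit* 3.20 ± 0.495, *Prc1* 2.31 ± 1.17, *Ect2* 1.97 ± 0.541, *Anln* 1.65 ± 0.431, *Pimreg* 1.60 ± 0.537, *Pbk* 0.809 ± 0.410 and *Cep55* 0.678 ± 0.361 (SD, n = 5). Each gene's range over the control libraries overlapped that of the next in this order. At day 5 the order was *Prc1* 24.6 ± 7.21, *Pimreg* 23.0 ± 6.49, *Racgap1* 17.6 ± 3.91, *Pbk* 12.5 ± 3.15, *Anln* 12.5 ± 5.86, *Ect2* 7.78 ± 2.52, *Cep55* 5.62 ± 1.77 and *Cit* 5.56 ± 0.716 (SD, n = 4), again with overlapping neighbours. *Cit* thus went from second to last without falling. The summed TPM of the 8 genes was 9.95 to 21.7 in control, 11.4 to 18.9 in day 1 and 72.9 to 142.7 in day 5 libraries.

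Within a group, single libraries were high or low for most of the genes. Day 5 replicate 3 was the highest of its group for 7 of the 8 genes, with *Ect2* the exception, and day 5 replicate 4 was the lowest for 7, with *Cit* the exception. Among the controls replicate 5 was the lowest for 7, all but *Ect2*, and replicate 4 the highest for 5. At day 1 replicate 1 was the highest for 5 genes and replicate 2 the lowest for 5. Over all 13 libraries the 28 pairs of genes correlated with a Pearson r of 0.756 to 0.983 on the log2 scale, which the difference between groups largely sets. After subtraction of the group means the 28 values ran from -0.09 to 0.753 with a median of 0.463, and 13 of them were above 0.5. For the 7 pairs with *Racgap1* they ran from -0.09 (with *Ect2*) to 0.472. Pairs of other genes were not compared in this way, and values of *Anln* with the genes most like it are given further on. These are descriptions, and the points of a pair share library and depth. No call of a member at day 5 rested on 1 library, since all 8 remained called when any of the 13 was left out, and *Anln* then ranged from 2.29 to 2.80.

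**Figure D4:**
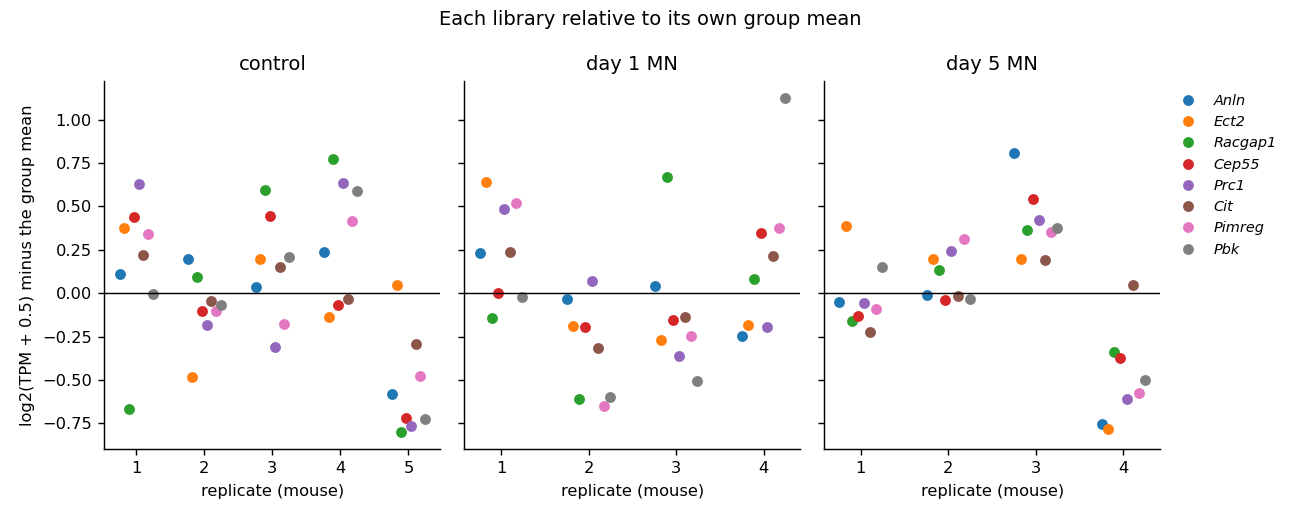
Deviation of log2(TPM + 0.5) from the group mean for each of the 8 genes (colours) and each mouse, by group. Points of day 5 replicate 3 lie above 0 for all 8 genes and those of day 5 replicate 4 below 0 for all but *Cit*. Those of control replicate 5 lie below 0 for all but *Ect2*.

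The rest of the cytokinesis pathway was read from a list of 40 further genes in 5 roles, of which 39 were tested. This list too was chosen with earlier results of these data known. *Kif14*, a midbody kinesin that also binds citron kinase, had mean TPM of 0.339, 0.222 and 0.991 in control, day 1 and day 5 libraries and did not pass the filter. At day 5, 10 of the 39 were called as higher, where the background was again 2.42% of tested genes, and none as lower. *Kif4* and *Diaph3* passed the filter only through the day 5 libraries, and without them 8 of 37 were called, 7 of these in the passenger complex and midzone roles. At day 1 limma called none of the 39, with 3 under an unadjusted p of 0.05, a level that 12.6% of all tested genes reached.

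All 5 genes of the chromosomal passenger complex and its partner kinase rose at day 5, and the median of their log2 fold changes was 1.92. *Birc5* (survivin) rose by 2.99 (limma adjusted p = 1.75e-05), from 1.38 ± 0.557 to 13.9 ± 3.003 TPM. *Aurkb*, the complex's kinase, rose by 2.48 (limma adjusted p = 0.000771), from 1.15 ± 0.511 to 8.83 ± 4.01 TPM. *Cdca8* (borealin) rose by 1.92 and the mitotic kinase *Plk1* by 1.55, and the scaffold *Incenp*, which started from a higher level of 12.3 ± 2.09 TPM, rose by 0.80 (limma adjusted p = 6.09e-05, 0.00177 and 0.00461).

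Of the midzone kinesins, 3 of 4 tested were called, with a median of 2.07, and 2 of 3 without *Kif4*. *Kif23*, the motor subunit that forms centralspindlin with the product of *Racgap1*, rose by 2.25 (limma adjusted p = 0.00129), from 2.66 ± 0.848 to 15.4 ± 9.25 TPM. *Kif20a* rose by 2.18 and *Kif4*, a partner of PRC1, by 1.96 (limma adjusted p = 7.95e-05 and 0.00019). *Kif20b* had a difference of 0.81 that did not pass (limma adjusted p = 0.222), with control libraries from 1.27 to 6.62 TPM.

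The contractile ring itself contained mostly genes with other uses in the cell, at summed levels of 2370 to 2721 TPM in control and 2952 to 3472 in day 5 libraries. Here 2 of 10 were called, with a median of 0.16, and 1 of 9 without *Diaph3*, with a median of 0.04. *Diaph3*, a formin, rose by 2.06 (limma adjusted p = 0.0002), from 0.455 ± 0.195 to 3.42 ± 0.763 TPM. *Myl9*, a myosin light chain of smooth muscle and other contractile cells, rose by 0.62 (limma adjusted p = 0.00228), from 639 ± 82.3 to 960 ± 117 TPM. *Myl12a* at 0.44 and *Rhoa* at 0.27 passed the adjusted p (limma, 0.0375 and 0.0136) and not the limit of 0.5 on the fold change. The myosin heavy chain *Myh9* was at 0.01 and *Rock2*, a RHOA effector kinase, at -0.02, the smallest of the role (limma adjusted p = 0.963 and 0.924).

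None of the 5 septins was called at day 5, with 4 under an unadjusted p of 0.05, and none of 15 genes of abscission, with 1. Of all tested genes, 2.42% were called as higher at day 5 and 20.1% had an unadjusted p under 0.05. Septins are filament proteins that anillin anchors, and their median was 0.22. *Septin6* at 0.34 and *Septin9* at 0.26 were the largest (limma adjusted p = 0.0697 and 0.133). *Septin7* at 0.22 and *Septin11* at -0.37, the smallest, passed the adjusted p (limma, 0.0145 and 0.00237) and not the limit of 0.5 on the fold change. *Septin7* had 219 ± 11.6 TPM in control and 248 ± 7.71 at day 5, and *Septin11* had 301 ± 11.0 and 228 ± 14.1 TPM. For the ESCRT and abscission genes the median was 0.05 and the values ran from -0.11 (*Chmp5*) to 0.20 (*Chmp6*), with *Tsg101* at 0.18 (limma adjusted p = 0.363, 0.343 and 0.222). Their summed level was 1395 to 1498 TPM in control and 1404 to 1531 at day 5. From day 1 to day 5, 9 of the 39 were called as higher, where the background was 1.41%. They were the genes called at day 5 without *Myl9*, and 7 of 37 were called without *Kif4* and *Diaph3*.

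**Figure D5:**
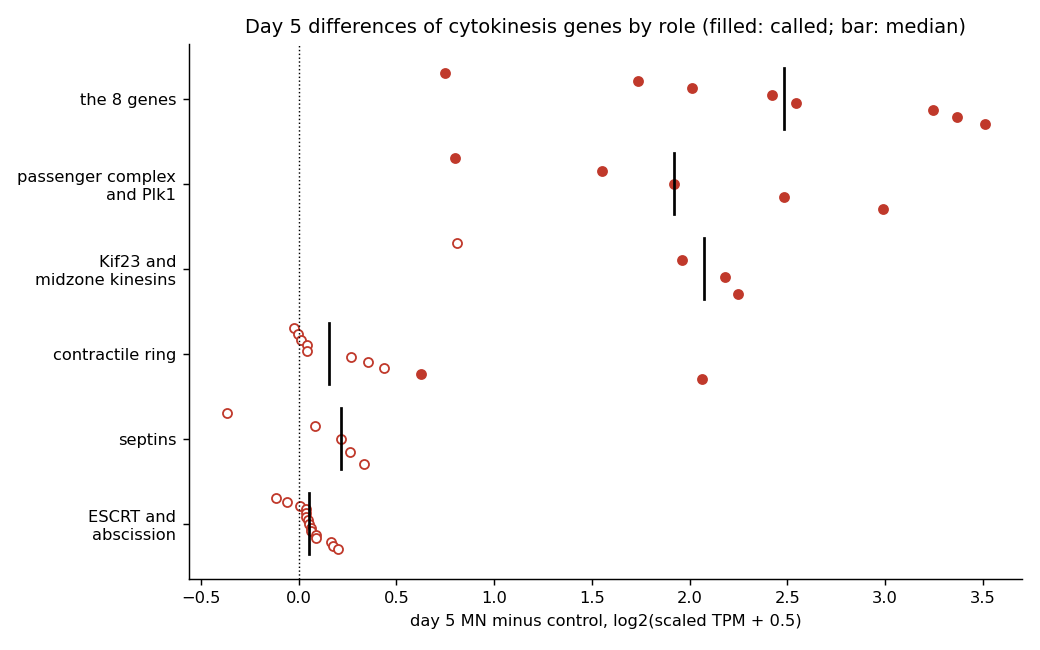
Log2 fold change of day 5 MN against control for the 8 genes and the tested genes of 5 further roles, one point per gene, filled where called, with a bar at the median. Medians are 2.48 for the 8 genes, 1.92 and 2.07 for the passenger complex and midzone kinesins, and 0.16, 0.22 and 0.05 for the contractile ring, septins and abscission genes.

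Markers of the cell types in the preparation were read beside these results. At day 5, 1 of 8 podocyte markers was called, the cyclin-dependent kinase inhibitor *Cdkn1c* with a rise of 0.72 (limma adjusted p = 0.000708). None of 8 endothelial or 6 mesangial markers was called by limma, with 4 and 1 under an unadjusted p of 0.05. Of the endothelial markers 7 were higher and 1 lower, and of the mesangial markers 4 were higher and 2 lower. Endothelial *Emcn* at 0.29, mesangial *Serpine2* at 0.42 and podocyte *Synpo* at -0.46 passed the adjusted p (limma, 0.0127, 0.0113 and 0.00197). They did not pass the limit of 0.5 on the fold change. Of all tested genes, 2.42% were called as higher at day 5 and 20.1% had an unadjusted p under 0.05. Endothelial markers summed to 9200 to 11320 TPM in control and 9213 to 11960 at day 5, and mesangial markers to 2171 to 3223 and 2954 to 3275. Among 4 parietal epithelial markers only *Cldn1* was called at day 5. It rose by 1.08 (limma adjusted p = 0.0036), from 5.38 ± 0.677 to 11.9 ± 3.10 TPM. *Pax8*, *Pax2* and *Cdh6* were at 0.22, 0.09 and 0.18 (limma adjusted p = 0.624, 0.883 and 0.658). The list summed to 12.7 to 16.5 TPM in control, 17.6 to 21.5 in day 1 and 19.8 to 24.8 in day 5 libraries. Of 8 leukocyte markers 6 were tested and none was called, with 1 under an unadjusted p of 0.05. They summed to 27.1 to 47.3 TPM in control, 31.1 to 56.0 at day 1 and 26.4 to 50.6 at day 5, and *Ptprc* (CD45) had a difference of 0.71 at day 5 (limma adjusted p = 0.131). No marker of these lists was at 0 in all libraries. The part of parietal cells, leukocytes or any other cell type in the rise of the 8 genes was not tested.

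Markers of the tubule, the tissue around the glomerulus, had higher values at day 1. All 6 proximal tubule markers were higher at day 1 than in control, by a median of 0.76, and all 5 of the distal nephron by a median of 0.61. None was called by limma, with 6 and 3 under an unadjusted p of 0.05, a level that 12.6% of all tested genes reached. Proximal markers summed to 262 to 655 TPM in control, 454 to 686 at day 1 and 334 to 454 at day 5, and distal markers to 255 to 515, 493 to 896 and 345 to 477. From day 1 to day 5 all 11 tubule markers were lower, by medians of -0.77 and -1.22, none of the proximal markers was called by limma (4 under an unadjusted p of 0.05), and of the distal markers *Aqp2* fell by 1.30 and *Calb1* by 1.39 (limma adjusted p = 0.0286 and 0.0313). All 4 globin transcripts were higher at day 5 than at day 1, by a median of 1.11, and limma called none, with 3 under an unadjusted p of 0.05. In this comparison 15.5% of all tested genes were under that level. A limma fit took the mean level of the 6 proximal tubule markers as a covariate, without the distal markers. In it the day 5 difference of *Anln* was 2.57 against control and 2.73 against day 1. All 8 genes remained called at day 5, and *Racgap1* was the gene that lost its call between the days.

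Among all other tested genes, the 5 whose log2 levels over the 13 libraries were most like those of *Anln* were *Nusap1*, *Ccnb2*, *Ncapg*, *Pkmyt1* and *Kif18b*, with a Pearson r of 0.989, 0.984, 0.983, 0.979 and 0.978. Their own log2 fold changes at day 5 were 2.25, 2.93, 1.90, 1.59 and 2.49, and at day 1 they ran from -0.41 to 0.01. After subtraction of group means the r with *Anln* was 0.762 to 0.855. Those most like the mean of the 8 genes were *Kif11*, *Nusap1*, *Kif18b*, *Mki67* and *Kif4*, with r from 0.987 to 0.994. These values describe the same 13 libraries as the comparisons above.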

How the data were processed

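Glomeruli of 13 mice, 1 library each, were sequenced. The authors trimmed reads (per the labels' tool list FastQC 0.11.9, Trimmomatic 0.39), quantified them with kallisto 0.46.2 on GRCm39 and deposited TPM per gene symbol. They tested counts with DESeq2, which was not used here. Read depth is unknown, and TPM carries no counting interval.

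Each library's TPM were scaled by a median-of-ratios factor (15772 genes above 0 in all libraries), and log2 was taken after adding 0.5. The 14322 genes reaching a TPM of 1 in 4 or more libraries were fitted with limma 3.58.1 in R 4.3.3 (mean-variance trend, all 3 groups in 1 fit), with Benjamini-Hochberg adjustment per comparison. The fit was tested on simulated data. Groups came from the labels, and the samples are separate animals per the study's methods. Same-numbered libraries of different groups had correlations of -0.0563 to 0.0913, so the numbers were not used as pairs. The labels give no batch.

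The members, lists, motifs and tests were chosen with earlier results of these data known. Named are all 8 members, every called gene of the wider list with the 2 largest and the smallest per role, and the 5 genes most like *Anln* and the member mean. *Kif14*, *Myh9*, *Myl12a*, *Rhoa*, *Septin7*, the overlapping genes and single markers were chosen after their values were seen. Positions and promoters came from GENCODE M39, and copies from BLAST+ 2.17.0 (90% identity over at least 20% of the transcript). Figures used matplotlib 3.10.9 in Python 3.11.15. The alternatives are given at the end.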

Additional observations from a re-analysis of the deposited data

Results flagged for a closer look

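*Ect2* in day 1 replicate 1, at 2.82 TPM, stood apart from the other 3 libraries of its group, with a gap to the nearest that was 0.931 of the group's range. Of 24 groups of values examined this way 1 stood out, and chance gives about 1 in 20. Without that library the day 1 difference of *Ect2* was -0.37 and still not called.

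Levels differed between day 5 and day 1 for 7 of the 8 genes. This is the limma contrast of day 5 against day 1, in which 1.41% of tested genes were called as higher. *Cep55* and *Pbk* passed the filter on low TPM only through the day 5 libraries, and without them the count was 5 of 6. The difference in log2 fold change was 2.97 for *Anln*, 1.89 for *Ect2*, 2.01 for *Racgap1*, 2.69 for *Cep55*, 3.25 for *Prc1*, 3.52 for *Pimreg* and 3.20 for *Pbk*. *Cit* was the gene for which this test did not pass. Both days are compared with the same control libraries, whose days are not known. A change in the effect of the antibody cannot be told apart from other differences between these sets of mice.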

How the results depend on the processing

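The limits are few mice per group, a table without counts or depth, TPM near or under 1 in control for several genes, and 1 control group for both days. Over pseudocounts, scaling, filters, trend, weights, covariate, block and left-out libraries, all 188 single-gene values at day 5 kept their direction and call. Of 188 between the days 187 did, and *Racgap1* with the proximal tubule marker covariate did not (1.70, limma adjusted p = 0.105). At day 1, 23 of 186 values changed sign and none was called. *Racgap1* became -0.0332 without further scaling, -0.0469 with quantile normalization and -0.12 with quality weights, *Prc1* 0.00498 with a pseudocount of 0.1, and with the covariate *Cep55* became 0.0109, *Prc1* 0.28 and *Pimreg* 0.12. Leaving out 1 library moved day 1 values of *Racgap1* from -0.21 to 0.20, *Prc1* from -0.19 to 0.15, *Pimreg* from -0.19 to 0.20 and *Pbk* from -0.22 to 0.36. Requiring a TPM of 1 in all 13 libraries left 4 members to test, with 4 called at day 5 and 3 between the days, and 6 and 5 of the wider list. The cause there is the smaller number of genes tested. For other changes the cause was not tested.

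Over all tested genes 13 were called at day 1, 460 at day 5 and 259 between the days. Day 1 calls numbered 6 without a filter, 7 without the trend, 2 with only the compared groups, 0 with the covariate (limma, 1148 at an unadjusted p under 0.05) and 3 to 218 with a library left out, the most without control replicate 5 and the fewest without day 1 replicate 1. Day 5 calls were 876 by adjusted p alone. Calls between the days numbered 153 with a TPM of 1 required in all libraries, 423 with only the compared groups, 142 with the covariate, and 150 to 437 with a library left out, the most without control replicate 5 and the fewest without day 5 replicate 2.

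The replicate block, fitted although the numbers do not pair the mice, gave 149 calls at day 1, turned the day 1 values of *Racgap1* to -0.18 and *Pbk* to -0.0131, and changed no call of a member. *Cit* at day 5 was then 0.69 (limma adjusted p = 0.0495).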
